A study of Mus musculus with 6 samples.

Results

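The week between postnatal day 7 (P7) and postnatal day 14 (P14) was followed in the retina of wild-type mice by setting 1 messenger RNA library of P14 retina against 1 library of P7 retina. Levels are given in RPKM, which divides a read count by gene length and by library size, so that levels of genes of different length can be set side by side. Of the 30042 genes in the table, the 13853 whose higher value in these libraries was at least 1 RPKM were compared, and the difference is that of log2(RPKM + 1), P14 minus P7. Both libraries came from fresh retinas of mice that the labels call wild-type, of the strain 129/Sv; C57/BL6J, and their titles have the same form, which the P3 library shares and the E16.5, P1 and P28 libraries do not. The remaining 4 of the 6 libraries, E16.5, P1, P3 and P28, are retinas of the same genotype and strain, and their values are given where they place a gene on its course. The title of the study is about cone loss in mice without the thyroid hormone-inactivating enzyme Dio3 and its rescue by removing the activating enzyme Dio2; mutant retinas are not analysed here. Sex, the number of retinas in a library and the hour of collection are not in the labels. Each age is 1 library, so no difference between the ages has a replicate check or a test, and a gene is called higher or lower when its difference is at least 1 in size, a change of at least 2-fold on this scale.

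Mice are born with closed lids and an unfinished retina, and the eyes open near the end of this interval. By its beginning the last progenitor cells, those that become rods, bipolar cells and Müller glia, are leaving the cell cycle. In the days that follow, photoreceptors grow the outer segments that hold the light-catching machinery, their ribbon synapses connect to bipolar cells, and Müller glia, the radial support cells that clear transmitter and potassium, take on their mature form.

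At P14, 446 genes (3.22% of those compared) were higher than at P7 and 366 (2.64%) were lower, and the other 13041 stayed within 2-fold. The median difference over all genes compared was -0.16, 34% of genes had a difference above 0, and the differences from the 5th to the 95th percentile lay between -0.80 and 0.81. At least 4-fold differences were seen in 68 genes upward and 34 downward. The higher genes took 12.5% of the RPKM sum at P14, against 3.07% at P7, and the lower genes took 2.15% at P14, against 5.92% at P7. The libraries were deep and close to each other in depth, with an estimated 28760024 reads at P14 and 23356683 at P7, so that 1 read in a gene of 2 kb was worth 0.0174 RPKM at P14 and 0.0214 RPKM at P7. When the libraries were rescaled by the median of ratios, the median difference moved to -0.03 and the split became 598 higher and 265 lower, 69.3% higher in place of 54.9%. With a pseudocount of 0.1 in place of 1, which counts low genes more fully, 814 genes were higher and 754 lower. Every median and count of a group of genes given here can therefore be read against a background in which most genes lay slightly below 0. In a whole tissue, fewer cells of a type and less RNA per cell cannot be told apart.

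**Figure D1:**
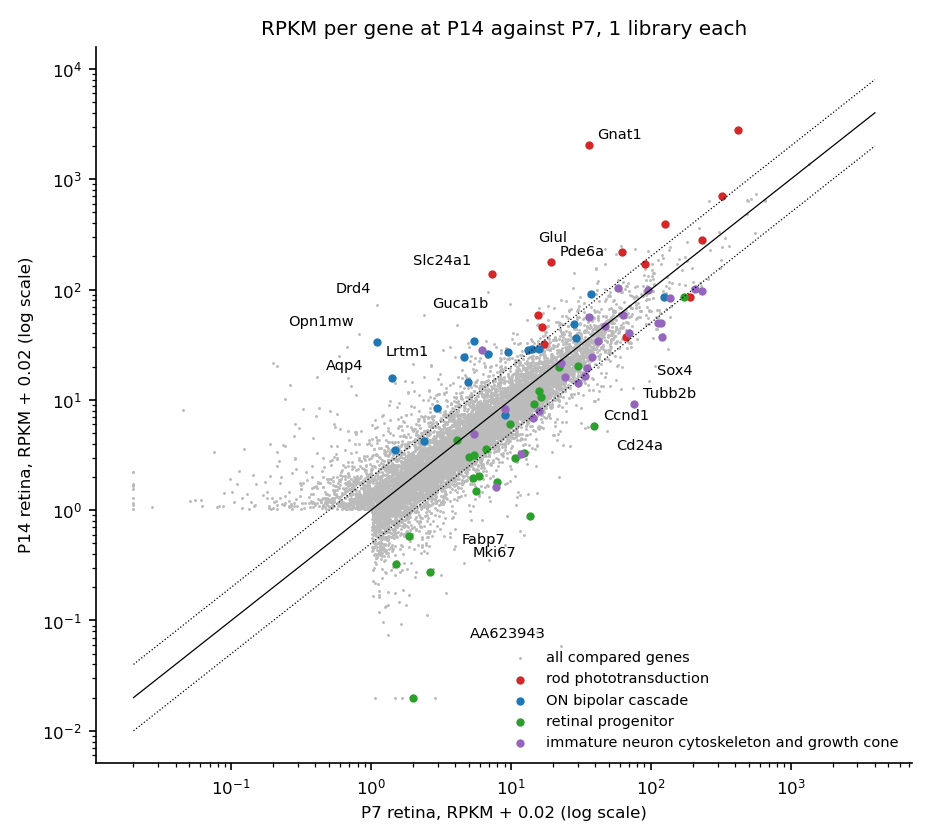
RPKM of each of the 13853 compared genes in the P14 library (vertical axis) against the P7 library (horizontal axis), both log scales after adding 0.02 so that values of 0 can be drawn; the solid line marks equal values and the dotted lines a 2-fold ratio of RPKM. Rod genes such as Gnat1 (2039 RPKM at P14 and 35.9 at P7) lie above the lines, and progenitor genes such as Ccnd1 (5.77 RPKM at P14 and 39.4 at P7) below them.

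Most genes of the cascade that turns light into an electrical signal in rods were higher at P14. Of the 14 genes of the rod list compared, 9 rose, 1 fell and 4 stayed within 2-fold. Their median difference was 1.52, against -0.16 over all genes. Beside the cascade, this list holds the rod genes Reep6, Nrl, Samd7 and Nr2e3, with differences of 1.82, 0.28, -0.84 and -1.14. These 4 are not members of the cascade. Gnat1, the alpha subunit of rod transducin, the G protein of the cascade, had 2039 RPKM at P14 and 35.9 at P7, 56.8 times higher at P14 (95% interval 54.3 to 59.4, counting error only, as for all ratios given here). It had the largest difference of all genes, 5.79. In age order from E16.5 to P28 its RPKM were 16.5, 20, 5.32, 35.9, 2039 and 3046. Slc24a1, the rod exchanger that exports calcium, had 139 RPKM at P14 and 7.29 at P7, and Pde6a, the alpha subunit of the rod phosphodiesterase, had 176 at P14 and 19.3 at P7. The beta subunit of the same enzyme, Pde6b, stayed under 2-fold with 170 RPKM at P14 and 90.8 at P7. Transcripts of these alpha and beta subunits were thus at nearly the same level at P14 and at unequal levels at P7. The inhibitory gamma subunit, Pde6g, lay above both, with 394 RPKM at P14 and 126 at P7. Cnga1, the alpha subunit of the cation channel that light closes, had 58.6 RPKM at P14 and 15.5 at P7, while its beta subunit Cngb1 had 32.2 at P14 and 17.3 at P7. The 1 member that fell was Nr2e3, a nuclear receptor that represses cone genes in rods, with 86.3 RPKM at P14 and 192 at P7 (difference -1.14, and -0.98 after median-of-ratios rescaling).

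Genes for the proteins that end the light response and reset it through calcium moved with those of the cascade. Of 13 genes compared, 9 rose and 0 fell, and the median difference was 1.59. Guca1b, which encodes the calcium sensor GCAP2 that switches on guanylate cyclase when calcium drops, had 59.2 RPKM at P14 and 2.35 at P7, a ratio of 25.2 (20.4 to 31.2). Its paralog Guca1a, which encodes GCAP1, had 67.5 at P14 and 15.9 at P7. Transcripts of both sensors were near the same level at P14, whereas Guca1a was well above Guca1b at P7. The genes of the cyclases that these sensors act on were Gucy2f, with 24.7 RPKM at P14 and 5.17 at P7, and Gucy2e, with 51 at P14 and 21.8 at P7. Rcvrn (recoverin, a calcium sensor that restrains the kinase Grk1) had 234 RPKM at P14 and 46.8 at P7, and Grk1 itself had 152 at P14 and 40.7 at P7. Sag, the rod arrestin, had 235 at P14 and 77.2 at P7. Of the complex that speeds up transducin shut-off, 2 subunits rose: its anchor Rgs9bp had 67.6 RPKM at P14 and 20.4 at P7 and its partner Gnb5 had 90.8 at P14 and 37.2 at P7, while the catalytic subunit Rgs9 had 95 at P14 and 50.9 at P7, a difference of 0.89. Pdc (phosducin, a transducin-binding protein) was already among the 10 highest genes at P7 and had 739 RPKM at P14 and 564 at P7.

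Promoters of these genes were read for short motifs of factors known to drive photoreceptor genes, in windows of 250 bases before to 50 bases after each start, from RefSeq on the build GRCm38.p6. The motif bound by the homeodomain factor Crx, TAATCC on either strand, was found in 13% of the 392 promoters of 288 genes higher at P14, in 6.6% of the 318 promoters of 235 lower genes and in 5.86% of the 12519 promoters of all compared genes with one. It was found in 4 of the 9 promoters of genes of the rod list (44.4%) and in 6 of the 11 promoters of shut-off and calcium feedback genes (54.5%). In the list of outer segment structure it was found in 3 of 23 promoters (13%). The letters TGCTGAC, part of the site of the rod factor Nrl, were found in 5.87% of promoters of higher genes, 2.2% of lower genes and 3.64% of all compared genes. They were in 1 of the 9 promoters of the rod list, 0 of 11 of the shut-off list and 0 of 23 of the outer segment list. The letters AGGTCA, the core of many nuclear receptor sites, were found in 16.8% of promoters of higher genes, 10.7% of lower genes and 12% of all compared genes. In the shut-off list their share was 54.5%, the same as that of the Crx motif. It was 22.2% in the rod list and 17.4% in the outer segment list. The cyclic AMP response element TGACGTCA was found in 2.55%, 2.2% and 3.06% of promoters of higher, lower and all compared genes. All motifs were searched on both strands, and none is part of another. Base composition differed between the sets, with 57.0% G and C in promoters of higher genes, 62.2% in lower genes and 61.0% in all compared genes. It was 51.0% in the rod list, 51.8% in the shut-off list and 54.6% in the outer segment list. The part of base composition in the motif shares was not tested. A match is a run of letters and no evidence of binding. The windows of Gucy2f (chrX:142196887-142197186, minus strand), Guca1a (chr17:47400557-47400856, minus strand) and Cnga1 (chr5:72642703-72643002, minus strand) are shown because each belongs to a gene that rose and holds the Crx motif, in capitals. Counted back from the start of the gene, the motif begins at 84 and 59 bases in Gucy2f, 57 in Guca1a and 228 in Cnga1.
Gucy2f: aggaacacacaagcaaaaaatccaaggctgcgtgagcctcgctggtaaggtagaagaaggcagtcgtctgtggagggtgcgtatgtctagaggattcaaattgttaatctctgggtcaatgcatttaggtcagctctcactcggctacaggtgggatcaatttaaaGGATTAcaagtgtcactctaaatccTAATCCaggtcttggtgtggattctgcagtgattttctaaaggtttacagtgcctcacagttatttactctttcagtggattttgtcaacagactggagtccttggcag
Guca1a: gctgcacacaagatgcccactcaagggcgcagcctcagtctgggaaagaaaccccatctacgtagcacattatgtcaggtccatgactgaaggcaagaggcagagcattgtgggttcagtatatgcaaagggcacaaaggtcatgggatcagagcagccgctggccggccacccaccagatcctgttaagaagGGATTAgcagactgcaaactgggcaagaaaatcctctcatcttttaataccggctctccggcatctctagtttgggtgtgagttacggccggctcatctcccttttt
Cnga1: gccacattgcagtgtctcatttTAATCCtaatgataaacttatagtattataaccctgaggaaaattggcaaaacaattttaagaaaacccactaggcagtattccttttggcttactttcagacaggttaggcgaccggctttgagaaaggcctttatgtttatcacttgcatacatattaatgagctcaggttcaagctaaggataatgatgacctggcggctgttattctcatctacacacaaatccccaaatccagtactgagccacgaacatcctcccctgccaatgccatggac
The first listed window of Slc24a1, which rose more than any of these, holds neither the Crx nor the Nrl letters.

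**Figure D2:**
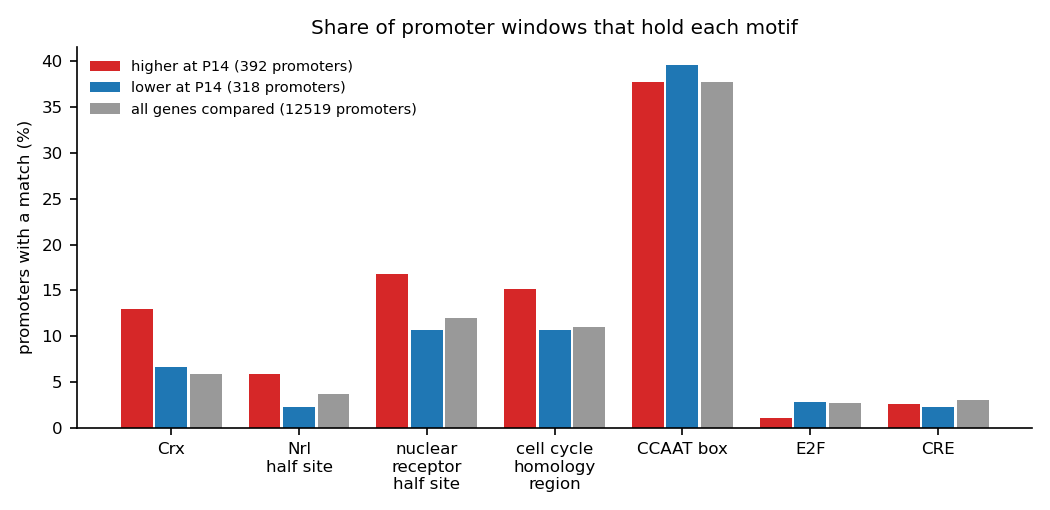
Share of promoter windows that hold each of 7 motifs (vertical axis, percent), for genes higher at P14 (392 promoters), genes lower at P14 (318) and all compared genes (12519); bars start at 0. The Crx motif reaches 13% in genes higher at P14 and 6.6% in lower genes, while the CCAAT box lies between 37.8% and 39.6% in all 3 sets.

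Genes of outer segment structure were higher at P14 in some cases and within 2-fold in the others. Of 21 genes compared, 6 rose and 0 fell, with a median difference of 0.54. Abca4, the disc-rim transporter that clears retinal, had 61.6 at P14 and 16.9 at P7, and Prph2, the tetraspanin that shapes the disc rim, had 638 at P14 and 260 at P7. Its partner Rom1 differed less, with 363 RPKM at P14 and 222 at P7. Fscn2, an actin-bundling protein of photoreceptors, had 7.04 RPKM at P14 and 1.62 at P7, and Fam161a, a protein of the photoreceptor cilium, had 57.4 at P14 and 23.2 at P7. Other members stayed within 2-fold: Rpgrip1, also of the cilium, had 111 RPKM at P14 and 106 at P7, and Prom1 had 55.5 at P14 and 52.8 at P7. Of 13 visual cycle genes compared, 2 rose: Rdh12, a retinal reductase of photoreceptors, with 53.2 RPKM at P14 and 18.4 at P7, and Dhrs3, another retinal reductase, with 10.9 at P14 and 4.38 at P7. Rlbp1, the retinal carrier of Müller glia and pigment epithelium, had 84.9 at P14 and 75.4 at P7.

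Cones did not move as a block. Of 14 cone genes, 4 rose and 2 fell, and the median difference was 0.21 (0.44 with a minimum of 5 RPKM). Opn1mw, the medium-wavelength opsin, had 39.5 RPKM at P14 and 0.794 at P7, a ratio of 49.8 (32.7 to 78), and 39.9 RPKM at P28. Opn1sw, the short-wavelength opsin, differed by 0.25, with 63.5 RPKM at P14 and 53.3 at P7, and had already reached 35.3 RPKM at P1. The cone arrestin Arr3 had 23.4 RPKM at P14 and 9.32 at P7, and the cone exchanger Slc24a2 had 5.27 at P14 and 1.63 at P7. The other direction was taken by Gngt2, the gamma subunit of cone transducin, with 4.75 RPKM at P14 and 20.2 at P7, a ratio of 0.235 (0.179 to 0.303), and by Rxrg, a nuclear receptor of cones, with 1.52 at P14 and 5.79 at P7. The other transducin subunits lay within 2-fold: Gnat2 (alpha) had 15.9 RPKM at P14 and 9.87 at P7, and Gnb3 (beta, shared with ON bipolar cells) had 85.2 at P14 and 125 at P7. Of 22 genes of thyroid hormone and retinoic acid signalling compared, 2 rose and 4 fell. Dio2, the enzyme that activates the hormone, had 7.35 RPKM at P14 and 0.552 at P7, a ratio of 13.3 (10.5 to 17), while Dio3, which inactivates it, was under 1 RPKM in both libraries, with 0.204 at P14 and 0.229 at P7. Hr, a corepressor whose gene the hormone induces in brain, had 24.1 RPKM at P14 and 8.94 at P7. The receptor Thrb, which sets medium-wavelength cone identity, had 11.4 RPKM at P14 and 10.1 at P7. Those that fell include Crym, a thyroid hormone-binding protein, with 9.81 RPKM at P14 and 38.9 at P7, and Crabp1, a carrier of retinoic acid, with 4.81 at P14 and 12.7 at P7.

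Most transcription factors that build photoreceptors were not higher at P14. Of 21 compared, 1 rose and 5 fell (2 and 3 after median-of-ratios rescaling), with a median difference of -0.52, against -0.16 over all genes. Prdm1, which keeps photoreceptor precursors from becoming bipolar cells, had 5.62 RPKM at P14 and 35.7 at P7, and Otx2, which sets photoreceptor and bipolar fate, had 39.4 at P14 and 123 at P7. Neurod1 had 125 RPKM at P14 and 257 at P7, a difference of -1.03 that was -0.87 after median-of-ratios rescaling. Crx had 244 RPKM at P14 and 320 at P7, and Nrl had 283 at P14 and 233 at P7, so both remained abundant. The 1 factor that rose without rescaling was Esrrb, an orphan nuclear receptor of rods, with 47.6 RPKM at P14 and 4.12 at P7, a ratio of 11.5 (10.4 to 12.8).

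**Figure D3:**
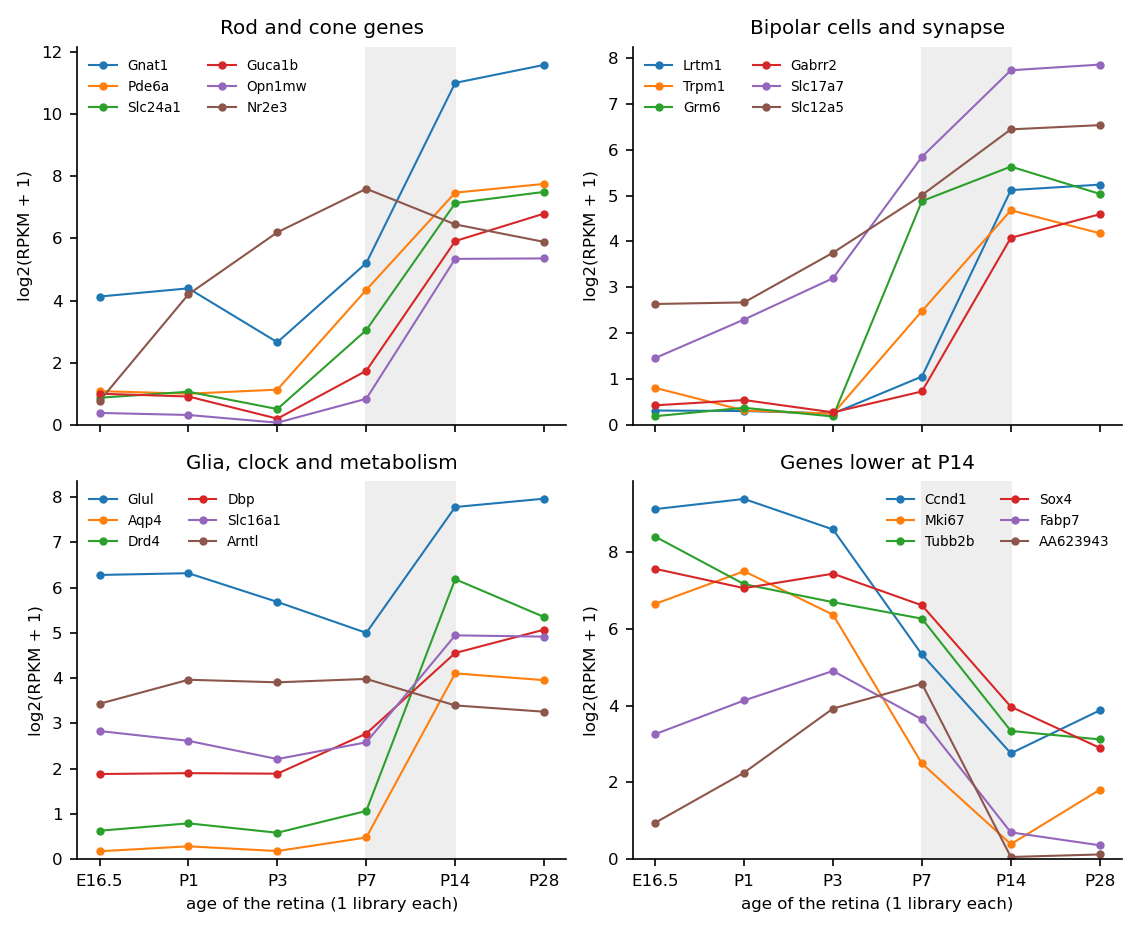
log2(RPKM + 1) of 24 genes (vertical axes) over the 6 ages in order (horizontal axis, 1 library each), with the interval between P7 and P14 shaded. Gnat1, Lrtm1, Gabrr2 and Aqp4 stay low up to P7 and are near their P28 level at P14, while Mki67 and Ccnd1 fall at P7 and again at P14.

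Some genes of photoreceptor output also rose, as did many of its receiver, the ON bipolar cell. Of 24 ribbon synapse genes, 7 rose and 0 fell, with a median difference of 0.58. Cabp4, the calcium sensor of the photoreceptor calcium channel, had 20.2 RPKM at P14 and 2.64 at P7, and Slc17a7, the transporter that fills vesicles with glutamate, had 211 at P14 and 56.4 at P7. Cplx4, a complexin of the photoreceptor ribbon synapse, had 104 RPKM at P14 and 27.6 at P7, and Cacna1f, the pore of the channel, had 27.7 at P14 and 11.9 at P7. Genes of scaffold proteins differed among themselves. Dlg4 (PSD-95) had 101 RPKM at P14 and 47 at P7. Bsn (bassoon) had 13.9 at P14 and 12.2 at P7, and Pclo (piccolo) had 14.6 at P14 and 14.2 at P7.

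Of 18 genes of the ON bipolar cascade, which turns the loss of glutamate in light into depolarization, 10 rose and 0 fell, and the median difference was 1.15. The lists overlap: these 10 include Gnb5, also counted in the shut-off list, and Lrit3, also counted in the ribbon synapse list. Lrtm1, a leucine-rich repeat membrane protein of bipolar cells, had 33.7 RPKM at P14 and 1.08 at P7, a ratio of 31.2 (26.9 to 36.3). Trpm1, the channel at the end of the cascade, had 24.6 at P14 and 4.59 at P7, and Gng13, a G protein gamma subunit of the cascade, had 15.8 at P14 and 1.38 at P7. Grm6, the glutamate receptor at its start, stayed within 2-fold with 48.5 RPKM at P14 and 28.4 at P7; its level was 0.138 RPKM at P3. Between them, Gpr179, the scaffold that holds the regulators of the receptor, had 28 at P14 and 13.2 at P7. At P7 the receptor gene Grm6 was thus within 2-fold of its P14 level, whereas the genes of the channel and the gamma subunit were not. Pcp2, a modulator of G proteins in ON bipolar cells, had 34.1 RPKM at P14 and 5.45 at P7. Among 23 bipolar cell markers, 9 rose and 2 fell (1 after median-of-ratios rescaling). Some of these risers, such as Lrtm1, Trpm1 and Pcp2, are also in the cascade list. The transcription factor Otx2, described above, was among the markers that fell, and Kcng4, a potassium channel subunit of cone bipolar cells, had 7.96 RPKM at P14 and 0.489 at P7.

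Some subunits of the GABA and glycine receptors rose while their paralogs stayed within 2-fold. Of 24 genes for GABA and glycine receptors and chloride transporters, 5 rose and 0 fell, with a median difference of 0.41. Gabrr2, a subunit of the GABA-gated channels of bipolar terminals, had 15.9 RPKM at P14 and 0.661 at P7, a ratio of 24 (16.6 to 36.5), and Gabrr1 had 24 at P14 and 8.31 at P7. Gabra2, an alpha subunit, had 6.52 RPKM at P14 and 5.12 at P7. Glra1, a glycine receptor alpha subunit, had 4.83 RPKM at P14 and 1.19 at P7, while Glra2 had 5.62 at P14 and 6.14 at P7. Slc12a5 (KCC2), the chloride exporter that makes GABA inhibitory, had 85.9 RPKM at P14 and 31.2 at P7, a ratio of 2.75 (2.66 to 2.85), while the importer Slc12a2 (NKCC1) had 4.62 at P14 and 4.89 at P7. Of 20 AMPA, kainate and NMDA receptor genes, 1 rose and 1 fell: Shisa9, an AMPA receptor auxiliary protein, with 5 RPKM at P14 and 1.34 at P7, and the kainate subunit Grik3, with 2.01 at P14 and 10.6 at P7. Grik1 had 12.1 RPKM at P14 and 6.74 at P7, so the order of these kainate subunits at P14 was the reverse of that at P7. Of 24 genes of conventional vesicle release, 3 rose (6 after median-of-ratios rescaling) and 1 fell, the last being Cplx2, with 36.6 RPKM at P14 and 104 at P7, while Cplx1 had 37.7 at P14 and 16.9 at P7.

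Genes of voltage-gated channels moved upward where they moved past 2-fold. Of 33 potassium and sodium channel genes, 8 rose and 0 fell, with a median difference of 0.55. Kcnv2, a silent potassium channel subunit of photoreceptors, had 123 RPKM at P14 and 58.3 at P7. Scn2b, a sodium channel auxiliary subunit, had 10 RPKM at P14 and 2.32 at P7. Of the pore-forming subunits Scn1a had 5.33 RPKM at P14 and 2.01 at P7, while Scn3a had 2.58 at P14 and 2.86 at P7. Kcnj14, an inward rectifier outside this list, had 20.2 RPKM at P14 and 0.193 at P7, a ratio of 104 (60.1 to 204) that rests on about 12 reads at P7.

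**Figure D4:**
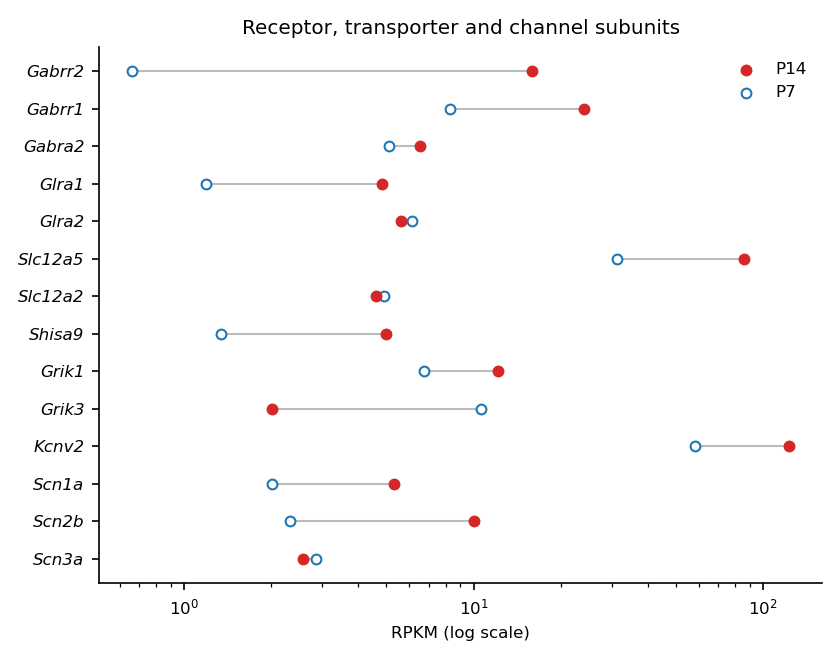
RPKM (horizontal log axis) of 14 receptor, transporter and channel subunits at P14 (filled) and P7 (open), joined by a line per gene. Gabrr2, Glra1, Slc12a5 and Scn2b lie further right at P14, Slc12a2, Glra2 and Scn3a are nearly unmoved, and Grik3 lies further left.

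Müller glia showed some genes that rose steeply beside others that did not. Of 22 genes compared, 6 rose and 1 fell, with a median difference of 0.45. Aqp4, the water channel of their endfeet, had 16.2 RPKM at P14 and 0.392 at P7, a ratio of 41.5 (22.9 to 83.2). Glul, glutamine synthetase, had 219 RPKM at P14 and 31 at P7, a ratio of 7.06 (6.74 to 7.4), and it was higher at E16.5 (76.7) and P1 (78.8) than at P7. Clu, the secreted chaperone clusterin, had 32.4 at P14 and 4.87 at P7, and Kcnj10, the potassium channel that buffers extracellular potassium, had 13.2 at P14 and 4.27 at P7. Slc1a3, the glial glutamate transporter, had 17.4 RPKM at P14 and 20.2 at P7, and Vim, the intermediate filament vimentin, had 17.6 at P14 and 25.6 at P7. Of 6 astrocyte genes compared, 1 rose, and it was Aqp4; Gfap, the astrocyte filament, had 2.6 at P14 and 2.01 at P7.

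Amacrine, horizontal and ganglion cell markers mostly stayed within 2-fold on the scale used, which understates changes of low genes. Among those counted as within were Nos1 of the amacrine list, with 1.61 RPKM at P14 and 0.431 at P7, and, downward, Onecut2 of the horizontal cell list, with 1.32 at P14 and 3.25 at P7. Of 26 amacrine genes 4 rose and 1 fell (median 0.55), of 12 horizontal cell genes 3 rose and 0 fell (median 0.15), and of 25 ganglion cell genes 3 rose and 2 fell (median 0.08). Calb2, the calcium buffer calretinin, had 70.5 RPKM at P14 and 30.6 at P7, and Npy, neuropeptide Y, had 11 at P14 and 32.7 at P7. Nefh, the heavy neurofilament of large axons, had 28.5 RPKM at P14 and 6.15 at P7. Both genes of the ganglion cell list that fell, Sox4 and Sox11, encode transcription factors that young neurons share: Sox11 had 1.18 RPKM at P14 and 7.09 at P7. Pou4f1, a factor of ganglion cells, had 6.46 at P14 and 6.73 at P7. Among genes with at least 5 RPKM in either library, the medians were 0.07 over 14 amacrine genes, 0.82 over 7 horizontal cell genes and 0.23 over 18 ganglion cell genes, so the order of these lists depends on the minimum.

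Genes of the molecular clock and of dopamine signalling were higher at P14 in 8 of 24 cases and lower in 1, with a median difference of 0.51. Drd4, the dopamine receptor of photoreceptors that lowers their cyclic AMP, had 71.8 RPKM at P14 and 1.09 at P7, a ratio of 66.1 (52.3 to 84.7), the second largest difference of all genes (5.12); it had 39.8 RPKM at P28. The clock output factors Dbp and Hlf had 22.5 and 24 RPKM at P14, against 5.84 and 5.52 at P7. Per2 and Per3 had 3.82 and 7.17 RPKM at P14, against 1.27 and 2.79 at P7, and Nr1d1 had 38.5 at P14 and 17.5 at P7. Arntl, the activator in whose opposite phase these genes run, had 9.53 RPKM at P14 and 14.8 at P7. Drd4, Dbp and the Per genes vary over the day in the mouse retina, and the hour of collection is not given in the labels, so age and hour cannot be told apart for them. Of 19 immediate early genes, which neurons and other cells switch on within minutes of a stimulus, 3 rose and 3 fell (median 0.16, and 0.01 with a minimum of 5 RPKM): Fos had 4.81 RPKM at P14 and 1.42 at P7 and Nr4a1 had 10.4 at P14 and 4.35 at P7, while Btg2 had 20.1 at P14 and 57.6 at P7 and Jun had 13.7 at P14 and 35.4 at P7. Egr1 had 12.2 at P14 and 13.4 at P7.

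Genes of glucose use rose in part, and those of the respiratory chain lay near the median of all genes compared. Of 29 glycolysis and glucose supply genes, 5 rose and 0 fell, with a median difference of 0.48. Slc16a1 (MCT1), a lactate transporter, had 29.8 RPKM at P14 and 4.98 at P7, a ratio of 5.98 (5.45 to 6.57), and Hk2, a hexokinase of photoreceptors, had 13.6 at P14 and 3.63 at P7 and 57.8 at P28. Pfkfb2, which makes the activator of phosphofructokinase, had 40.5 at P14 and 10.4 at P7, and Aldoc had 35.7 at P14 and 10.2 at P7. Of 34 respiratory chain genes, 0 rose and 0 fell. Over all genes compared 3.22% rose and 2.64% fell, so these counts are near the general share. Differences of the 34 genes lay between -0.75 (Sdhd) and 0.16 (Ndufa4). Their median was -0.25, against -0.16 over all genes (-0.10 against -0.03 after median-of-ratios rescaling). Of 16 genes of long-chain lipid supply, 3 rose and 2 fell: Adipor1, a receptor needed for docosahexaenoic acid in photoreceptors, had 50.9 RPKM at P14 and 20.8 at P7, while Elovl2, an elongase that makes such fatty acids, had 11.9 at P14 and 42.5 at P7. Of 24 cholesterol genes 1 fell, the efflux transporter Abca1, with 3.39 RPKM at P14 and 12 at P7.

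**Figure D5:**
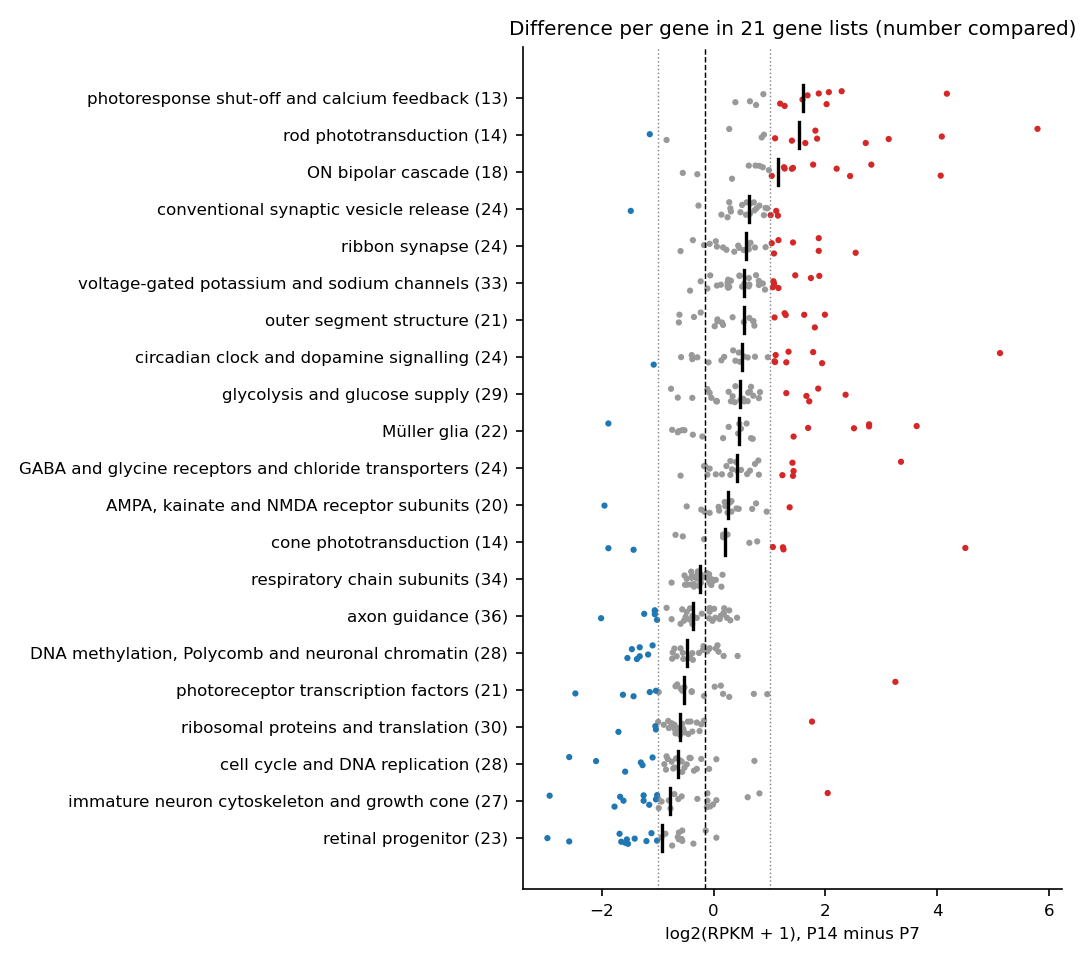
log2(RPKM + 1) at P14 minus P7 (horizontal axis) of each compared member of 21 gene lists, with the number compared in parentheses; red points are at least 1, blue points -1 or less, the black bar is the list's median and the dashed line the median of all genes, -0.16. The medians run from -0.93 in retinal progenitor genes to 1.59 in genes of photoresponse shut-off and calcium feedback.

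Genes of progenitor cells fell in many cases and rose in none. Of 23 compared, 11 fell and 0 rose, with a median difference of -0.93 (-1.42 with a pseudocount of 0.1). It was -0.86 over 25 genes without a minimum and -0.85 after median-of-ratios rescaling. Ccnd1, the D-type cyclin that drives retinal progenitors, had 5.77 RPKM at P14 and 39.4 at P7, after 558 at E16.5 and 671 at P1. Notch1 had 3.28 RPKM at P14 and 12.4 at P7, its target Hes5 had 2.95 at P14 and 10.6 at P7, and Olig2 was listed at 0 at P14, against 1.98 at P7. Some factors of the early eye field that mature cells also use stayed within 2-fold, such as Six3 with 12.1 RPKM at P14 and 15.8 at P7 and Pax6 with 20 at P14 and 22.2 at P7. Some fallen genes were higher again in the P28 library, with Ccnd1 at 13.7 RPKM and Mki67 at 2.5; that library has the other form of title, and the source of these reads was not tested.

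Many cell cycle genes were low at P7 already, Ccnd1 and Cdk4 (10.6 RPKM at P14 and 27.1 at P7) being exceptions. Of 45 listed, 28 passed 1 RPKM in either library, 6 of them fell and 0 rose. The median difference of the 28 was -0.63 (-1.06 with a pseudocount of 0.1, and -0.57 after median-of-ratios rescaling). Their median level was 0.813 RPKM at P14 and 1.98 at P7. Many of them thus passed the minimum through the P7 value alone, which favours a negative median. Without a minimum the median over all 45 was -0.52, and with a minimum of 5 RPKM it was -1.29 over only 4 genes. Mki67, a marker of dividing cells, had 0.309 RPKM at P14 and 4.63 at P7, after 81.9 at P3, a ratio of 0.0668 (0.053 to 0.0826). Top2a, the topoisomerase of mitosis, had 0.156 RPKM at P14 and 1.46 at P7, after 30.7 at P3. E2f1 had 0.548 at P14 and 3.63 at P7, and Mcm7, a replication helicase subunit, had 1.64 at P14 and 5.5 at P7. A pseudocount of 1 understates ratios at such levels. Promoters of the cell cycle list gave 40 windows of 37 genes, among them genes under 1 RPKM that were not compared. Most of these genes were not called lower. The windows held the CCAAT box in 77.5%, against 37.8% for all compared genes. They held the cell cycle homology region TTTGAA in 35% against 11%, and the E2F motif (TTTCCCGC or TTTGGCGC) in 25% against 2.67%. Over the 318 windows of genes lower at P14 these shares were 39.6%, 10.7% and 2.83%. Top2a (chr11:99024140-99024439, minus strand) and Mki67 (chr7:135716330-135716629, minus strand) are shown as the windows of a pair of fallen genes that hold the first and second of these motifs, in capitals on either strand; CCAAT reads ATTGG and TTTGAA reads TTCAAA on the opposite one. Top2a holds 6 CCAAT boxes and 2 homology regions, and Mki67 holds 3 and 2.
Top2a: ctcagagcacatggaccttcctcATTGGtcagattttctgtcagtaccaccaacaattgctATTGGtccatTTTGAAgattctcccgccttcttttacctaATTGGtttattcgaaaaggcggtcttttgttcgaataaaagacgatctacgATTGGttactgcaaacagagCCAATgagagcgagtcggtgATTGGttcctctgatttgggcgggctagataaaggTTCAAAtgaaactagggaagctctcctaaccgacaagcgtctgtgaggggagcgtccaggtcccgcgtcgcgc
Mki67: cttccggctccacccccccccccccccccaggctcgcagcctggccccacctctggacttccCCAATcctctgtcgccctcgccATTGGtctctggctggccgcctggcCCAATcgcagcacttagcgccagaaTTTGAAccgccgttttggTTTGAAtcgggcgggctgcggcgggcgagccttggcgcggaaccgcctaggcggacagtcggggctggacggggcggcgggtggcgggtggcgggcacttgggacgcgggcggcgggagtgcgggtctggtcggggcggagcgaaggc
The first listed window of E2f1 (chr2:154569377-154569676, minus strand) holds none of these letters. Whether it lies at the main start of that gene was not tested, and windows of other starts are not shown.

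Genes of growing neurites, which postmitotic neurons express, were lower in part. Of 27 genes of immature neuron cytoskeleton and growth cone, 9 fell and 1 rose, with a median difference of -0.77. Tubb2b, a tubulin of migrating neurons, had 9.14 RPKM at P14 and 76.2 at P7, a ratio of 0.12 (0.11 to 0.131); tubulin genes share sequence, so reads of one can be counted in another. Dcx, doublecortin, had 1.59 RPKM at P14 and 7.85 at P7, and Marcksl1 had 37.3 at P14 and 121 at P7. The 1 member that rose was Nefh, described above, while Nefl, the light neurofilament, had 103 RPKM at P14 and 58.1 at P7, and Ina (internexin) had 46.7 at P14 and 47.1 at P7. Of 36 axon guidance genes 6 fell and 0 rose (median -0.37; 2 fell after median-of-ratios rescaling), led by Robo3, a receptor of crossing axons, with 0.528 RPKM at P14 and 5.17 at P7. Sox4, a factor of young neurons, had 14.7 RPKM at P14 and 97.2 at P7. Cd24a, a surface protein of young neurons, had 5.16 at P14 and 48.9 at P7.

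Of 28 genes of DNA methylation, Polycomb and chromatin, 7 fell and 0 rose (median -0.48), among them Ezh2, the Polycomb methyltransferase, with 1.91 RPKM at P14 and 6.28 at P7, and the linker histone H1f0, with 20.6 at P14 and 58.5 at P7. Ezh1, the related methyltransferase of resting cells, had 7.05 RPKM at P14 and 6.11 at P7. Of 30 ribosomal protein and translation genes, 3 fell and 1 rose (median -0.59; 1 fell after median-of-ratios rescaling). Eef1a2, the elongation factor of mature neurons and muscle, had 80.2 RPKM at P14 and 22.9 at P7, and its paralog Eef1a1 had 56.2 at P14 and 113 at P7, so their order was turned round. Genes with many processed copies, such as those of ribosomal proteins, may have lost or shared reads in counting.

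Several of the largest differences belonged to no list. Upward these included Vtn, vitronectin, an adhesion protein, with 94.5 RPKM at P14 and 6.88 at P7, Aqp1, a water channel, with 25.1 at P14 and 0.573 at P7, and the unnamed RIKEN transcripts A930036K24Rik, with 21.6 at P14 and 0.178 at P7, and 2610034M16Rik, with 30 at P14 and 0.652 at P7. Of the 63 compared genes whose RIKEN name begins with A930, 15 were higher at P14 (23.8%), against 50 of all 1574 RIKEN-named genes (3.18%); this count was made after the values were seen. Downward the largest difference was that of AA623943, with 0.0388 RPKM at P14 and 22.8 at P7 (difference -4.52), followed by Gm11546, with 0.0592 at P14 and 15.3 at P7. Both had built up to P7, AA623943 from 0.928 RPKM in the E16.5 library by way of 14.2 in the P3 library, before they were nearly gone at P14. Fabp7, a fatty acid-binding protein of progenitors and young glia, had 0.621 RPKM at P14 and 11.5 at P7. Mex3a (an RNA-binding protein), Insm2, Chrnb4 (a nicotinic receptor subunit), Pax7, H19, Arhgap31 and 3110035E14Rik were also among the 15 largest decreases, as were Ccnd1, Cd24a, Sox4 and Tubb2b; the values of the 7 genes named first lay at P14 between 0.335 (Pax7) and 3.81 RPKM (Arhgap31), against 7 (Pax7) and 26.5 RPKM (Arhgap31) at P7.

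The higher genes, taken as a set, were no lower at P28. The median RPKM of the 446 genes, in age order from E16.5 to P28, was 1.02, 1.14, 1.46, 2.69, 10.5 and 12.3, and 256 of them were highest at P28, 181 at P14 and 9 at another age. The median of the 366 lower genes in the same order was 18.4, 16.6, 18.5, 10.3, 3.02 and 2.74. Of these 160 were highest at E16.5, 92 at P3 and 64 at P7. By the same 2-fold rule the interval before, P7 against P3, had 361 genes higher and 540 lower, and the interval after, P28 against P14, had 181 higher and 81 lower; each shares a library with the comparison of P14 with P7, and the intervals are of unequal length. In 9 genes the P14 value was at least 2-fold above both the P7 and the P28 value, 6 of them small nucleolar RNA genes with under 3 RPKM. At the same RPKM a short gene holds fewer reads than a gene of 2 kb, so these 6 rest on few reads. A930031H19Rik had the largest excess, with 0.0251 RPKM in the P7 library, 8.03 in the P14 library and 1.14 in the P28 library. In 7 genes the P7 value was at least 2-fold above both the P3 and the P14 value, among them Npy, whose RPKM over P3, P7 and P14 were 13.8, 32.7 and 11, and Abca1, with 4.91, 12 and 3.39 over the same ages.

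Both libraries held the defining genes of retina, such as Crx and Gnat1 above, and markers of other tissues were low in both. Of 23 lens genes 1 passed 1 RPKM, Cryab, with 7.9 at P14 and 5.26 at P7, and the lens list summed to 11.6 RPKM at P14 and 7.53 at P7. Of the pigment epithelium and melanocyte list, which summed to 63.2 RPKM at P14 and 25.2 at P7, 9 genes were compared and 2 rose, Trpm1, which ON bipolar cells also express, and Krt18; Rpe65, the defining enzyme of that epithelium, had 1.37 RPKM at P14 and 0.467 at P7. Of the list of cornea, conjunctiva and ciliary epithelium, with a sum of 3.96 RPKM at P14 and 14.2 at P7, 3 were compared and 2 fell, Mfap4, with 0.506 at P14 and 7.28 at P7, and Zic2, with 0.487 at P14 and 2.46 at P7, while Krt14, Krt5 and Krt4 were listed at 0 at both ages. Blood genes summed to 15.3 RPKM at P14 and 18.1 at P7, and eye muscle genes to 4.87 at P14 and 3.68 at P7. The Y-linked gene Eif2s3y had 14.9 RPKM at P14 and 15.1 at P7. Of 20 stress genes 1 rose and 2 fell, the steepest being Txnip, a thioredoxin inhibitor that responds to glucose, with 2.5 RPKM at P14 and 15.2 at P7. Actb, often used as a constant gene, had 104 RPKM at P14 and 197 at P7.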

How the data were processed

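Messenger RNA of 6 wild-type retina libraries, 1 per age, was sequenced from Trizol RNA, bead-purified and made into double-stranded cDNA, per the labels' protocols. The authors deposited 1 table of RPKM values per gene, per the file headers. Build mm9 and bcl2fastq 2.17.1.14 come from the submitters' processing notes; no source used here gives the aligner, the counting tool, the annotation or the strand. So reads of overlapping genes on opposite strands cannot be told apart, and Sox4 overlaps an annotated opposite-strand transcript. No gene coordinates are given, because the gene annotation at hand is of another build.

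Differences are log2(RPKM + 1) at P14 minus P7 as deposited, with no test, for genes whose higher value was at least 1 RPKM. This scale understates changes of low genes. Depth was estimated from the steps between values under 0.3 RPKM and reference transcript lengths: 66.4% of low values at P14 and 63.8% at P7 were whole reads within 0.05, too few for a test on counts. Estimated reads of 11802 compared genes (85.2%) gave exact binomial 95% intervals of the ratio of P14 to P7. They cover counting error only, and do not cover differences between retinas, between dissections or from PCR copies. Calculations used Python 3.11.15, numpy 2.4.6, scipy 1.17.1 and pandas 2.3.3, and were tested on simulated data.

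The interval, the 46 gene lists and the rules were chosen with earlier results of these data known. Named are the 15 largest differences each way, up to 6 members a list with the largest differences and their partners in a pair or family, the highest genes at either age, the genes with the largest excess at P14 or P7 over the neighbouring ages, and promoters of up to 2 rod or outer segment genes and 2 cell cycle genes. Some genes that meet these rules are not reported here. The promoters of Gucy2f, Guca1a and Top2a were chosen after their letters were seen. Of the compared genes 9764 have a promoter window. Alternatives were another pseudocount, other minimum values and 3 rescalings.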

Additional observations from a re-analysis of the deposited data

How the results depend on the processing

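No called gene changed direction under any alternative, but this was fixed in advance. Another pseudocount or minimum cannot turn a direction, and the rescalings moved the median difference by far less than a 2-fold call. With a pseudocount of 0.1 the counts became 814 higher and 754 lower, and the median difference over all genes -0.20; by construction this counts ratios of low genes more fully. Without a minimum value the counts stayed at 446 and 366 by construction, as a 2-fold call on this scale needs at least 1 RPKM. The median was then 0.00 because genes at 0 entered, and with a minimum of 5 RPKM it was -0.21. After rescaling the median was -0.03 by the median of ratios, -0.14 by a common sum of RPKM and -0.10 by a common sum without the 50 highest genes. In this order, 265, 356 and 315 of the 366 lower genes stayed past 2-fold. All 446 higher genes did so each time, but each rescaling raised P14 against P7, which favours higher calls. No gene list changed the sign of its median under these 3 rescalings. With a minimum of 5 RPKM the median of stress genes went from 0.04 to -0.13 and that of astrocyte genes from 0.07 to -0.12 (-0.10 without a minimum). The median of genes that bead selection should deplete or that stay in the nucleus went from -0.39 to 0.04. Of 196 called genes of the lists and of the largest differences, 14 fell under 2-fold by the median of ratios (among them Dll1, Dpysl3, Dpysl5, Efna2, Efnb2, Eif4a1, Ephb2, Neurod1, Nr2e3, Plxnb1, Rpl32, Smarcc1 and Tubb5). Genes at least 2-fold higher at P14 than at both P7 and P28 numbered 43 with a pseudocount of 0.1 and 3 with a minimum of 5 RPKM, in place of 9, and genes at P7 2-fold above both P3 and P14 numbered 32 with that pseudocount, in place of 7. With 1 library per age no spread between retinas of 1 age can be had, and no library can be left out. No paired analysis was possible because each age has 1 library and no test was run. At P14 a count of 0 allows up to 0.0522 RPKM in a gene of 2 kb and at P7 up to 0.0642 RPKM, taking 3 reads as the limit.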

Other observations

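Cells of the vessels and of the immune system were measured in the same libraries. Of 19 endothelial and pericyte genes compared, 1 rose and 0 fell, with a median difference of 0.37 (0.23 without a minimum value): the riser was Slc16a1, which glia and photoreceptors also express, while Cldn5, a tight junction protein of vessels, had 9.56 RPKM at P14 and 7.16 at P7. Angpt2, a factor of vessel remodelling, had 1.31 RPKM at P14 and 3.32 at P7, a difference of -0.91. Of 10 microglia and macrophage genes compared 0 rose and 0 fell, and C1qa, a complement subunit that tags synapses, had 0.93 RPKM at P14 and 2.65 at P7 (difference -0.92). Of 7 interferon and antigen presentation genes 1 rose, Irf7, with 1.75 RPKM at P14 and 0.204 at P7. Of 5 oligodendrocyte and optic nerve genes 1 fell, Olig2, which progenitors also express.

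Of 20 extracellular matrix genes compared 1 rose and 0 fell: Sparcl1, a secreted protein of glia, had 45.9 RPKM at P14 and 17.8 at P7. Hapln4, a link protein of perineuronal nets, had 1.45 RPKM at P14 and 0.238 at P7 (difference 0.98), while the matrix proteins of young tissue Vcan and Tnc had 0.372 and 2.58 RPKM at P14, against 1.46 and 5.5 at P7.

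Several non-coding and short transcripts also differed. Miat, a long non-coding RNA of progenitors and neurons, had 12.9 RPKM at P14 and 74.6 at P7, after 270 at P3. Of 10 genes that bead selection of polyadenylated RNA should deplete or that stay in the nucleus, 1 rose and 3 fell: the histone gene Hist1h2bc had 8.82 RPKM at P14 and 1.92 at P7, and the small RNA Rn7sk had 0.837 at P14 and 3.35 at P7. Malat1 had 659 RPKM at P14 and 521 at P7. The 6 small nucleolar RNA genes that were at least 2-fold higher at P14 than at both P7 and P28 lie in part within host genes that hardly differed, such as Snora61 in Snhg12, with 3.68 RPKM at P14 and 3.29 at P7 for the host; whether their reads come from the host was not tested. Of 15 housekeeping genes 1 fell, Rplp0, with 13.3 RPKM at P14 and 45.4 at P7.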
